A study of Mus musculus with 10 samples.

Results

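The 40 genes described here drive or mark the division cycle of the cell, in mouse liver during diet-induced steatohepatitis. They were chosen by symbol from the 17274 genes of the deposited table, and all 40 were found there. Of these, 20 act in G1 or S phase (10 G1 cyclins, kinases and activators, and 10 replication genes), 18 act or peak in G2 and mitosis, and 2 encode inhibitors of cyclin-dependent kinases. All 40 reached a mean of 0.5 FPKM over the 10 livers, the level needed to enter the test. FPKM stands for fragments per kilobase of gene length, scaled by the number of reads, and is a level that allows for gene length and sequencing depth.

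The tested livers came from wild-type mice given an intravenous adeno-associated virus (AAV, used to carry genes into tissue) that encodes miR-181d-5p, and the reference livers from wild-type mice given a control AAV, with 5 livers in each group. Both groups ate the same diet, CDAHFD, which is choline-deficient, high in fat and built on defined L-amino acids, so the comparison is between 2 vectors in diseased livers and holds no healthy liver. The promoter of the vector, the cells it reaches, the dose, the age of the mice and the time of harvest are not given in the sources used here. The labels do not say that each liver came from a separate animal, so a p-value here reflects only how far these samples spread, which may be technical.

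A cell enters division when D-type cyclins bind Cdk4 or Cdk6 and cyclin E binds Cdk2, which frees E2F factors to switch on the replication genes. Mitotic genes are switched on later, by a complex that recruits B-Myb and Foxm1 to a short promoter element, the cell cycle homology region. Many of these promoters also hold CCAAT boxes. Most hepatocytes of an adult liver rest outside the cycle, and both hepatocytes and the other cells of the liver re-enter it after injury. In bulk tissue, fewer cells of a type and less RNA per cell cannot be told apart.

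The microRNA that the vector carries is shown first because its seed, bases 2 to 8 in capitals, sets which transcripts it can pair with. The mature sequence of 23 bases is from RefSeq (GRCm38.p6, chr8:84178759-84178781, minus strand).
mmu-miR-181d-5p: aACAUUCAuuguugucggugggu
The longest annotated 3′ UTR of each gene (GENCODE vM21, mm10) was searched for TGAATGTA (the 8mer), TGAATGT (7mer-m8) and GAATGTA (7mer-A1) on the transcribed strand. A match was found in 9 of the 40 genes (22.5%), against 2702 of 11770 tested genes with a 3′ UTR (23.0%). An 8mer was found in 1 of the 40 (2.5%), Ccna2, against 698 tested genes (5.93%). The Ccna2 site begins at base 92 of a 3′ UTR of 1369 bases, in exon 8 of 8 (chr3:36566135-36566142, minus strand). It is shown with the sites of Aurkb (chr11:69051524-69051530, plus strand), Pcna (chr2:132249390-132249396, minus strand) and Mcm5 (chr8:75127575-75127581, plus strand), the matched members with the most negative log2 changes, and the match is in capitals.
Ccna2: acaatcacttcTGAATGTAgatggtatagc
Aurkb: ttgtcaaatgtTGAATGTtatttttaaaa
Pcna: ttttgttaacaTGAATGTttctgctttac
Mcm5: aacaggccctgGAATGTAgatgggtctgt
The other matches lie in Cdk6, Cdc25a and Ccnb1 (7mer-m8) and in Mcm4 and Cenpa (7mer-A1). The Cenpa match begins at base 11 of its 3′ UTR, in exon 4 of 5. It runs across an exon junction, so it is unbroken only in the spliced transcript. The median log2 change was -0.14 over the 9 members with a match, of which 6 were lower in miR-181d-5p livers, and -0.07 over the 31 without, of which 20 were lower. Over all tested genes it was -0.05 with a match and -0.01 without. These medians are from the values as deposited, where changes over all genes tested were more negative in longer genes (Pearson r -0.24 against log2 length). They were not corrected for length, and what part length has in them was not tested. A match is a description of the letters and not a measured site of pairing. How much miR-181d-5p each liver held was not analysed here.

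The promoters of the mitotic and the replication genes carry different elements. RefSeq promoters of 300 bases (250 before to 50 after the start, GRCm38.p6) were matched for 32 of the 40 genes, and not for Stmn1, Ccne2, Foxm1, Mcm4, Aurkb, Ccna2, Ccnd2 and Ccnd1. A gene with several listed starts was counted once, and both strands were searched for TTTGAA (the cell cycle homology region), CCAAT, and TTTCCCGC, TTTGGCGC, TTTCGCGC or TTTGCCGC (E2F). TTTGAA was found in 11 of 14 mitotic promoters (78.6%), 1 of 9 replication promoters (11.1%) and 0 of 7 promoters of G1 genes, against 14.6% of the 9659 promoters of tested genes. An E2F match was found in 4 of 9 replication promoters (44.4%), 2 of 7 of G1 genes (28.6%) and 1 of 14 mitotic promoters (7.14%), that of Cdk1, against 4.57% of tested genes. CCAAT was found in 13 of 14 mitotic (92.9%) and 8 of 9 replication promoters (88.9%), against 42.9% of tested genes. These matches may overlap each other. Both Top2a and Ccnb2 hold TTTGAA and CCAAT, while their log2 changes had opposite signs, and Mcm3 and Mcm5 hold E2F matches and CCAAT but no TTTGAA. Their promoters are shown with those matches in capitals, at chr11:99024140-99024439 (Top2a, minus strand), chr9:70421505-70421804 (Ccnb2, minus strand), chr1:20820263-20820562 (Mcm3, minus strand) and chr8:75109259-75109558 (Mcm5, plus strand).
Top2a: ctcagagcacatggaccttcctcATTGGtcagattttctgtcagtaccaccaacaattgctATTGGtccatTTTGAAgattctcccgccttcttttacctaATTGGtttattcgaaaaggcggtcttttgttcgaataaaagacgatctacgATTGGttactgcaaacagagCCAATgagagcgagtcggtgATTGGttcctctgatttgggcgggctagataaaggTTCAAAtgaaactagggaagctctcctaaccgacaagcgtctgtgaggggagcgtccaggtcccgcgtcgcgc
Ccnb2: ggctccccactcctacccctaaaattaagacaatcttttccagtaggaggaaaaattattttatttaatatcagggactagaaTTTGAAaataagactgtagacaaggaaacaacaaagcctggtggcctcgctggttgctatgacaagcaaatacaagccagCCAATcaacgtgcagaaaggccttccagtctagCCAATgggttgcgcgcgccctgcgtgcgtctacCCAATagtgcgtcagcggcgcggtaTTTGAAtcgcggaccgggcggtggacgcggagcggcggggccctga
Mcm3: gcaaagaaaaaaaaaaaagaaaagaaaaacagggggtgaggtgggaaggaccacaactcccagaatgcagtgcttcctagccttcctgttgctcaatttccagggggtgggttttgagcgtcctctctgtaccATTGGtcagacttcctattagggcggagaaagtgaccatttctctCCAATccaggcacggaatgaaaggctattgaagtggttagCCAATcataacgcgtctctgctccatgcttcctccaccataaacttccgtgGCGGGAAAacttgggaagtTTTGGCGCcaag
Mcm5: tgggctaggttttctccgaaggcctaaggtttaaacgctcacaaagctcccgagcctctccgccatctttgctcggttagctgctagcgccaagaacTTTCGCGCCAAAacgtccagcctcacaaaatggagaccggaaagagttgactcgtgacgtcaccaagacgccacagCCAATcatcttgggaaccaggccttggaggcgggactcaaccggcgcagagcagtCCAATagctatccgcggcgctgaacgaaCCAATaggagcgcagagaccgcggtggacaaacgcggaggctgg

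Library totals recovered from the FPKM values were 18985912 to 20657019 reads, and the 40 genes held 52 to 9258 reads per liver. Hepatocyte markers dominated every liver, with Alb and Trf highest. The 12 hepatocyte markers summed to 46251 to 52400 FPKM in miR-181d-5p livers and 44841 to 52057 FPKM in control livers. Control livers 1, 2 and 5 stand apart by gene length. A liver's log2 level relative to the mean of all livers was higher by 0.12 per doubling of gene length in control livers 1 and 2. The slope was -0.10 in control liver 5, opposite in sign. It was -0.03 to 0.01 in miR-181d-5p livers, and -0.04 and -0.01 in control livers 3 and 4. Of 12053 genes tested, 9167 (76.1%) had a wider spread between control livers than between miR-181d-5p livers.

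No gene passed the test between the vectors. Limma on log2(FPKM + 1) called 0 of 12053 genes at an adjusted p under 0.05 (0.0%), and limma voom on the recovered reads also called 0. At an unadjusted p under 0.05 limma found 1768 genes (14.7%) and voom 1744. Of limma's 1768 genes, 1161 (9.63% of those tested) were lower and 607 (5.04%) higher in miR-181d-5p livers. Of the 40 cell cycle genes, 5 (12.5%) had an unadjusted p under 0.05, a share near that of all genes: the mitotic genes Top2a, Bub1b, Mki67 and Ccna2 and the G1 gene Ccnd2, each lower in miR-181d-5p livers. Top2a had the lowest adjusted p of the 40, at 0.221.

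The median log2 change was -0.08 over the 40 genes, 26 of them lower and 14 higher. Over all genes tested it was -0.02, with 6574 lower and 5479 higher. Among the 20 G1/S genes, 16 were lower and 4 higher, with a median of -0.10 and 1 unadjusted p under 0.05. Among the 18 mitotic genes, 9 were lower and 9 higher, with a median of -0.02 and 4 unadjusted p under 0.05 (22.2%). In this fit more of the G1/S than of the mitotic genes were thus lower. These are signs of genes from the same livers, which are not independent results. The genes furthest from 0, Top2a and Bub1b, were mitotic, and the next, Ccnd2, was a G1 gene. Log2 changes ran from -0.36 to 0.27 in the mitotic class and from -0.30 to 0.23 in the G1/S class. The order of the 2 medians turned without control livers 1 and 2 (G1/S 0.02, mitotic -0.07), without control liver 2 alone (-0.01 and -0.06), without miR-181d-5p liver 5 (-0.045 and -0.052) and with array weights (-0.02 and -0.06).

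**Figure D1:**
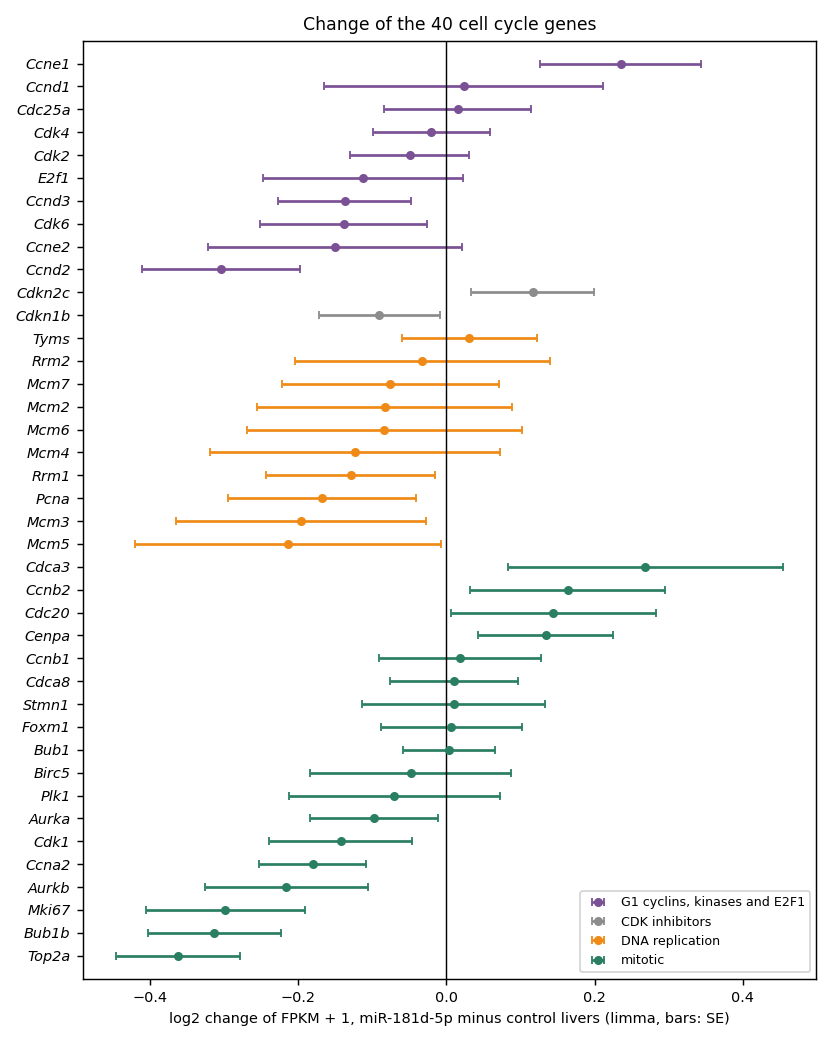
Log2 change of FPKM + 1 (x axis, miR-181d-5p minus control livers) for each of the 40 genes (y axis), with points as limma estimates, bars as their SE and colours as classes. The mitotic genes spread from -0.36 (Top2a) to 0.27 (Cdca3), and 9 of 10 replication genes lie below 0.

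The D cyclins carry growth signals into the cycle, and the 3 genes differed widely in level. Ccnd1 (chromosome 7, 144929931 to 144939925, minus strand, mm10), the main D cyclin of regenerating hepatocytes, had the highest mean of the 40 genes. Its levels were 74.2, 119, 64.2, 70.0 and 102 FPKM in miR-181d-5p livers 1 to 5, against 95.6, 97.4, 100.5, 61.3 and 65.3 FPKM in control livers 1 to 5. The groups overlapped across nearly their whole range, with 2 high miR-181d-5p livers and 3 high control livers. Its log2 change was 0.02 (SE 0.19) and the limma adjusted p 0.965, and its sign turned in 6 of 20 alternatives, down to -0.10.

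Ccnd2 (chromosome 6, 127125162 to 127152193, minus strand) encodes a D cyclin that can pair with the same kinases. Its levels were 2.71, 2.67, 2.68, 2.44 and 2.74 FPKM in miR-181d-5p livers, against 3.70, 4.81, 3.30, 3.32 and 2.66 FPKM in control livers. Control liver 5 alone lay within the range of the miR-181d-5p livers, which were tightly grouped. The miR-181d-5p mean was 74.5% of the control mean, with a log2 change of -0.30 (SE 0.11), a limma adjusted p of 0.257 and an exact permutation p of 0.0397 (two-sided, as throughout). The log2 change was -0.21 once the trend with gene length was removed and -0.16 without control livers 1 and 2 (limma unadjusted p 0.0766, adjusted p 0.364).

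Ccnd3 (chromosome 17, 47505051 to 47599691, plus strand), the last D cyclin, had 16.0, 19.7, 16.3, 17.8 and 18.4 FPKM in miR-181d-5p livers, against 17.1, 17.5, 21.6, 22.4 and 19.3 FPKM in control livers. The groups overlapped, and the 2 highest values were both in control livers. Ccnd3 had a log2 change of -0.14 (SE 0.09), with a limma adjusted p of 0.477 and an exact permutation p of 0.175.

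The E cyclins bind Cdk2 at the entry to S phase. Ccne1 (chromosome 7, 38097984 to 38107534, minus strand) had 2.67, 3.81, 2.99, 2.495 and 3.50 FPKM in miR-181d-5p livers, against 2.88, 2.78, 2.49, 1.91 and 2.29 FPKM in control livers. Livers 2, 3 and 5 of the miR-181d-5p group lay above every control value, and the others within the control range. The miR-181d-5p mean was 125% of the control mean, with a log2 change of 0.23 (SE 0.11), a limma adjusted p of 0.34 and an exact permutation p of 0.0873. Ccne2 averaged 1.502 ± 0.319 FPKM in miR-181d-5p livers and 1.85 ± 0.830 FPKM in control livers (SD, n = 5 each), with control livers 2 and 4 as its highest and lowest. Its log2 change was -0.15 (SE 0.17, limma adjusted p 0.695), and 0.07 without control livers 1 and 2.

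Among the kinases these cyclins bind, Cdk4 averaged 45.0 ± 4.44 FPKM in miR-181d-5p livers and 45.6 ± 3.07 FPKM in control livers, and Cdk2 5.49 ± 0.528 against 5.72 ± 0.483 FPKM. Cdk6, the other D cyclin kinase, averaged 2.90 ± 0.189 FPKM in miR-181d-5p livers and 3.35 ± 0.759 FPKM in control livers. It is the longest gene of the 40 at 12096 bases, and its log2 change of -0.14 was -0.03 with the length trend removed. Cdc25a, the phosphatase that activates Cdk2, averaged 3.48 ± 0.450 FPKM in miR-181d-5p livers and 3.44 ± 0.524 FPKM in control livers. E2f1, which activates replication genes, averaged 3.82 ± 0.908 FPKM in miR-181d-5p livers and 4.17 ± 0.718 FPKM in control livers.

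Both kinase inhibitors overlapped between the groups. Cdkn1b (p27; chromosome 6, 134920401 to 134925513, plus strand), which holds resting cells out of the cycle, had 13.5, 12.3, 14.4, 11.9 and 11.8 FPKM in miR-181d-5p livers, against 13.8, 14.2, 11.8, 15.2 and 13.4 FPKM in control livers. Its log2 change was -0.09 (SE 0.08, limma adjusted p 0.608, exact permutation p 0.286). Cdkn2c (p18; chromosome 4, 109660876 to 109667189, minus strand), an inhibitor of Cdk4 and Cdk6, had 9.82, 8.10, 7.90, 7.99 and 7.55 FPKM in miR-181d-5p livers, against 7.14, 6.99, 7.65, 7.31 and 8.63 FPKM in control livers. miR-181d-5p liver 1 lay above all others. Its log2 change was 0.12 (SE 0.08, limma adjusted p 0.514, exact permutation p 0.175).

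**Figure D2:**
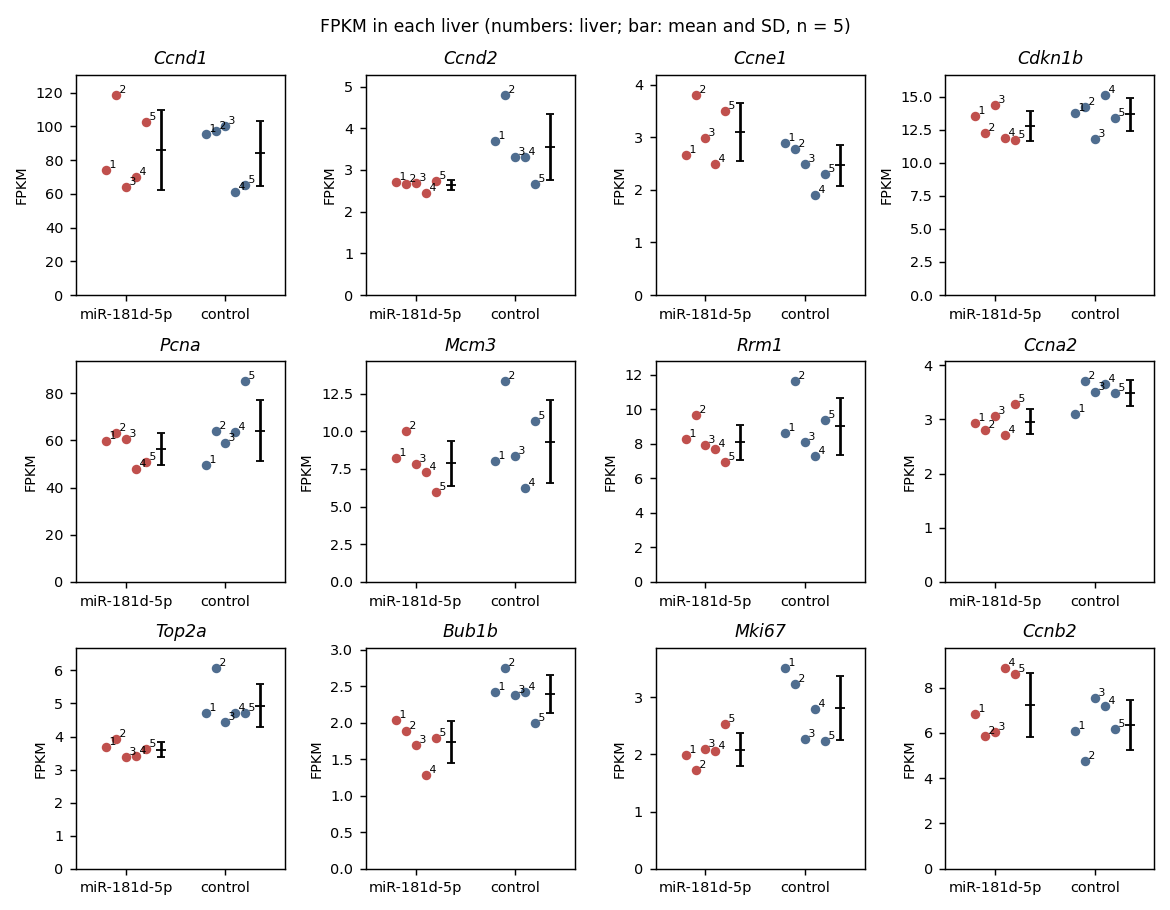
FPKM (y axis, from 0) in each miR-181d-5p liver and each control liver for 12 genes, with numbered points as livers and bars as the mean and SD of 5. The groups of Top2a do not overlap (3.37 to 3.93 against 4.44 to 6.06 FPKM), and those of Ccnd1, Pcna and Ccnb2 overlap.

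The 10 replication genes varied more from liver to liver than between the vectors. The 6 subunits of the helicase that opens replication origins, Mcm2 to Mcm7, all had negative log2 changes, from -0.21 (Mcm5) to -0.08 (Mcm7), with a median of -0.10 and 0 unadjusted p under 0.05 in the limma fit. All 6 were highest in control liver 2, and their lowest liver was control liver 4 for 3, miR-181d-5p liver 5 for 2 and control liver 3 for 1. Mcm3 (chromosome 1, 20802968 to 20820312, minus strand) had 8.20, 10.001, 7.83, 7.28 and 5.99 FPKM in miR-181d-5p livers, against 8.04, 13.3, 8.38, 6.21 and 10.7 FPKM in control livers. Its groups overlapped except for control livers 2 and 5, which lay above every miR-181d-5p liver. Mcm3 had a log2 change of -0.20 (SE 0.17, limma adjusted p 0.589, exact permutation p 0.333).

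The other subunits also averaged lower in miR-181d-5p livers, with a wider spread in control livers. Mcm2 averaged 7.62 ± 1.42 FPKM in miR-181d-5p livers and 8.31 ± 2.63 FPKM in control livers, and Mcm4 5.35 ± 1.43 against 6.04 ± 2.18 FPKM. Mcm5 averaged 7.33 ± 1.62 FPKM in miR-181d-5p livers and 8.95 ± 3.36 FPKM in control livers, and Mcm6 10.6 ± 2.08 against 11.5 ± 3.70 FPKM. Mcm7 averaged 10.4 ± 1.14 FPKM in miR-181d-5p livers and 11.3 ± 3.19 FPKM in control livers. In each of the 6 the control SD was the wider one, with a median SD on the log2 scale of 0.25 in miR-181d-5p livers and 0.41 in control livers. Relative to the control mean, the mean log2 level of the 6 genes was 0.03, 0.17, -0.16, -0.25 and -0.44 in miR-181d-5p livers 1 to 5, against -0.10, 0.56, -0.21, -0.48 and 0.22 in control livers 1 to 5. The control livers alone span more than all miR-181d-5p livers. This direction rests on control liver 2: without it 4 of the 6 were higher in miR-181d-5p livers and the median log2 change was 0.04. Without control livers 1 and 2 it was 0.05, and 4 of 6 were again higher, up to 0.12 for Mcm2. With array weights, which count the livers unequally, the median was likewise 0.04.

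**Figure D3:**
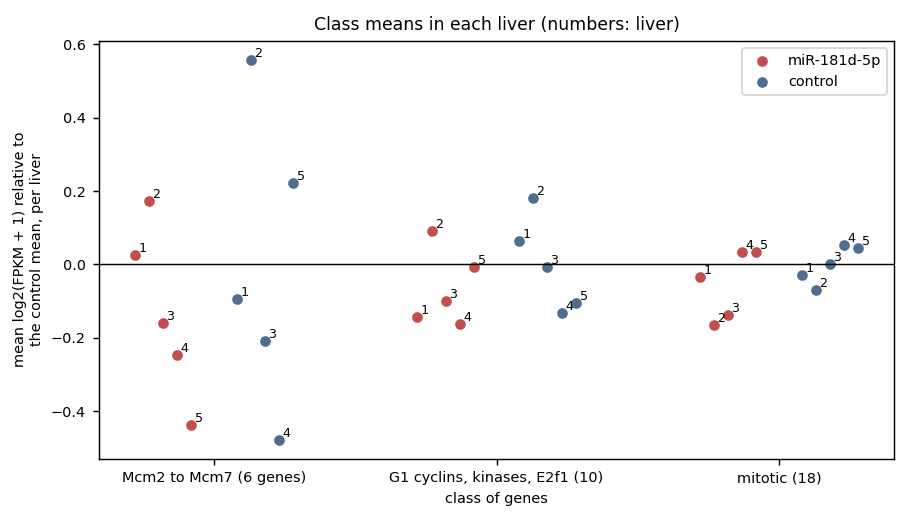
Mean log2(FPKM + 1) of 3 groups of genes in each liver (y axis), relative to the control mean, with miR-181d-5p livers left of control livers and numbers as livers. Mcm2 to Mcm7 run from -0.44 to 0.17 in miR-181d-5p livers and from -0.48 to 0.56 in control livers, while the mitotic means stay between -0.17 and 0.05.

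Pcna and the enzymes of nucleotide supply followed the helicase only in part. Pcna (chromosome 2, 132249162 to 132253314, minus strand), the sliding clamp of DNA polymerase, had 59.6, 63.0, 60.7, 47.8 and 50.9 FPKM in miR-181d-5p livers, against 49.4, 63.8, 58.8, 63.5 and 85.0 FPKM in control livers. Control liver 5 was highest, control livers 2 and 4 lay narrowly above every miR-181d-5p liver, and control livers 1 and 3 lay within the miR-181d-5p range. Pcna had a log2 change of -0.17 (SE 0.13, limma adjusted p 0.538, exact permutation p 0.27). Rrm1 (chromosome 7, 102441695 to 102469771, plus strand), the large subunit of ribonucleotide reductase, had 8.30, 9.68, 7.93, 7.68 and 6.93 FPKM in miR-181d-5p livers, against 8.63, 11.6, 8.13, 7.29 and 9.38 FPKM in control livers. Only control liver 2 lay above every miR-181d-5p liver, and the log2 change was -0.13 (SE 0.11, limma adjusted p 0.597, exact permutation p 0.341). Rrm2, the small subunit, averaged 6.68 ± 1.62 FPKM in miR-181d-5p livers and 6.85 ± 1.76 FPKM in control livers. Tyms, which makes thymidylate, averaged 2.51 ± 0.340 FPKM in miR-181d-5p livers and 2.43 ± 0.312 FPKM in control livers.

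Of all 40 genes only Top2a, the topoisomerase that untangles sister chromatids, had groups that did not overlap; over all genes tested 175 (1.45%) were separated with miR-181d-5p lower and 123 (1.02%) with it higher. Top2a (chromosome 11, 98992943 to 99024189, minus strand) had 3.67, 3.93, 3.37, 3.41 and 3.62 FPKM in miR-181d-5p livers, against 4.71, 6.06, 4.44, 4.72 and 4.71 FPKM in control livers. Every miR-181d-5p liver lay below every control liver, and control liver 2 stood above the other controls. The miR-181d-5p mean was 73.0% of the control mean, with a log2 change of -0.36 (SE 0.08) and a limma adjusted p of 0.221. The exact permutation p of 0.00794 is the lowest value that 5 livers against 5 allow. Over 20 alternative settings the log2 change ran from -0.45 to -0.29, and the adjusted p from 0.117 to 0.502.

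Bub1b (chromosome 2, 118598211 to 118641591, plus strand) encodes BubR1, which holds anaphase until chromosomes are attached. Its levels were 2.03, 1.88, 1.69, 1.28 and 1.79 FPKM in miR-181d-5p livers, against 2.42, 2.74, 2.38, 2.42 and 1.998 FPKM in control livers. The groups met only at miR-181d-5p liver 1 and control liver 5. The log2 change was -0.31 (SE 0.09), with a limma adjusted p of 0.236 and an exact permutation p of 0.0159, and it was -0.29 with the length trend removed.

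Mki67 (chromosome 7, 135689784 to 135716361, minus strand) encodes Ki-67, the coat protein of mitotic chromosomes that pathologists stain to count cycling cells. Its levels were 1.997, 1.72, 2.09, 2.05 and 2.53 FPKM in miR-181d-5p livers, against 3.50, 3.23, 2.27, 2.79 and 2.24 FPKM in control livers. miR-181d-5p liver 5 lay above control livers 3 and 5, and the other 4 lay below every control liver. The miR-181d-5p mean was 74.1% of the control mean, with a log2 change of -0.30 (SE 0.11), a limma adjusted p of 0.266 and an exact permutation p of 0.0397. Its 2 highest values were in the livers that favour long genes, and its length is 10079 bases. Its log2 change was -0.20 with the length trend removed and -0.16 without control livers 1 and 2 (limma unadjusted p 0.136, adjusted p 0.445).

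Ccna2, the cyclin of S and G2 phase that holds the 8mer, is given in every liver for that site and for its p, a choice made after its values were seen. It had 2.93, 2.81, 3.07, 2.70 and 3.30 FPKM in miR-181d-5p livers, against 3.09, 3.70, 3.50, 3.66 and 3.49 FPKM in control livers. miR-181d-5p liver 5 alone lay above control liver 1, the lowest control. The log2 change was -0.18 (SE 0.07), with a limma adjusted p of 0.304 and an exact permutation p of 0.0159, and its unadjusted limma p was under 0.05 in 13 of 20 alternatives.

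The other mitotic genes lay on both sides of 0. Cdk1, the kinase that drives mitosis, averaged 2.98 ± 0.250 FPKM in miR-181d-5p livers and 3.42 ± 0.594 FPKM in control livers. Its partner Ccnb1 averaged 3.51 ± 0.752 against 3.402 ± 0.234 FPKM. Aurkb, the kinase of the chromosomal passenger complex, averaged 2.23 ± 0.483 FPKM in miR-181d-5p livers and 2.73 ± 0.355 FPKM in control livers, a log2 change of -0.22 with a limma adjusted p of 0.378. Of its partners in that complex, Birc5 (survivin) averaged 7.80 ± 1.37 FPKM in miR-181d-5p livers and 8.13 ± 1.56 FPKM in control livers, and Cdca8 (borealin) 3.60 ± 0.459 against 3.55 ± 0.330 FPKM. Incenp, the scaffold of the complex and not one of the 40, had a log2 change of -0.21 (limma adjusted p 0.288), close to that of Aurkb. Aurka, the kinase of spindle poles, averaged 2.30 ± 0.217 FPKM in miR-181d-5p livers and 2.54 ± 0.376 FPKM in control livers. Plk1, a kinase of mitotic entry and exit, averaged 2.53 ± 0.874 FPKM in miR-181d-5p livers and 2.62 ± 0.158 FPKM in control livers.

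Bub1, a checkpoint kinase and the lowest gene of the 40, averaged 0.7103 ± 0.0521 FPKM in miR-181d-5p livers and 0.708 ± 0.0880 FPKM in control livers. Foxm1, which switches on mitotic promoters, averaged 1.24 ± 0.251 FPKM in miR-181d-5p livers and 1.22 ± 0.206 FPKM in control livers. Cenpa, the histone of centromeres, averaged 10.5 ± 0.584 against 9.52 ± 1.40 FPKM, and Stmn1, which destabilises microtubules, 31.8 ± 3.05 against 32.0 ± 6.41 FPKM. The checkpoint genes Bub1 and Bub1b therefore had log2 changes of 0.00 and -0.31.

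The largest positive changes of the 40 were those of Cdca3, Ccne1 and Ccnb2, and the mitotic ones among them shared livers. Cdca3, a trigger of mitotic entry, had 6.37, 5.003, 5.74, 10.3 and 7.24 FPKM in miR-181d-5p livers, against 5.56, 3.26, 5.60, 6.84 and 6.58 FPKM in control livers. Ccnb2, a B cyclin, had 6.85, 5.84, 6.05, 8.85 and 8.62 FPKM in miR-181d-5p livers, against 6.07, 4.75, 7.54, 7.18 and 6.16 FPKM in control livers. Both were highest in miR-181d-5p liver 4 and lowest in control liver 2, and both groups overlapped. Cdc20, the activator of the anaphase-promoting complex, shared both of those livers, at 5.96 ± 1.42 FPKM on average in miR-181d-5p livers and 5.23 ± 0.792 FPKM in control livers. Their limma adjusted p were 0.501 (Cdca3), 0.565 (Ccnb2) and 0.63 (Cdc20). The 2 genes with values in every liver were chosen here after their values were seen.

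Control liver 2 was an extreme for 11 of the 18 mitotic genes. It was the lowest liver for 6, namely Ccnb2, Cdc20, Cdca3, Birc5, Cenpa and Stmn1, which are 972 to 2148 bases long. It was the highest for 5, namely Top2a, Ccna2, Bub1, Bub1b and Aurka, which are 2249 to 5236 bases long. Among the other 7, Cdk1, of 4349 bases, was at 2.98 FPKM in that liver, below its control mean of 3.42 FPKM. What part gene length has in these extremes was not tested. The mean over the mitotic genes was -0.07 in that liver relative to the control mean.

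**Figure D4:**
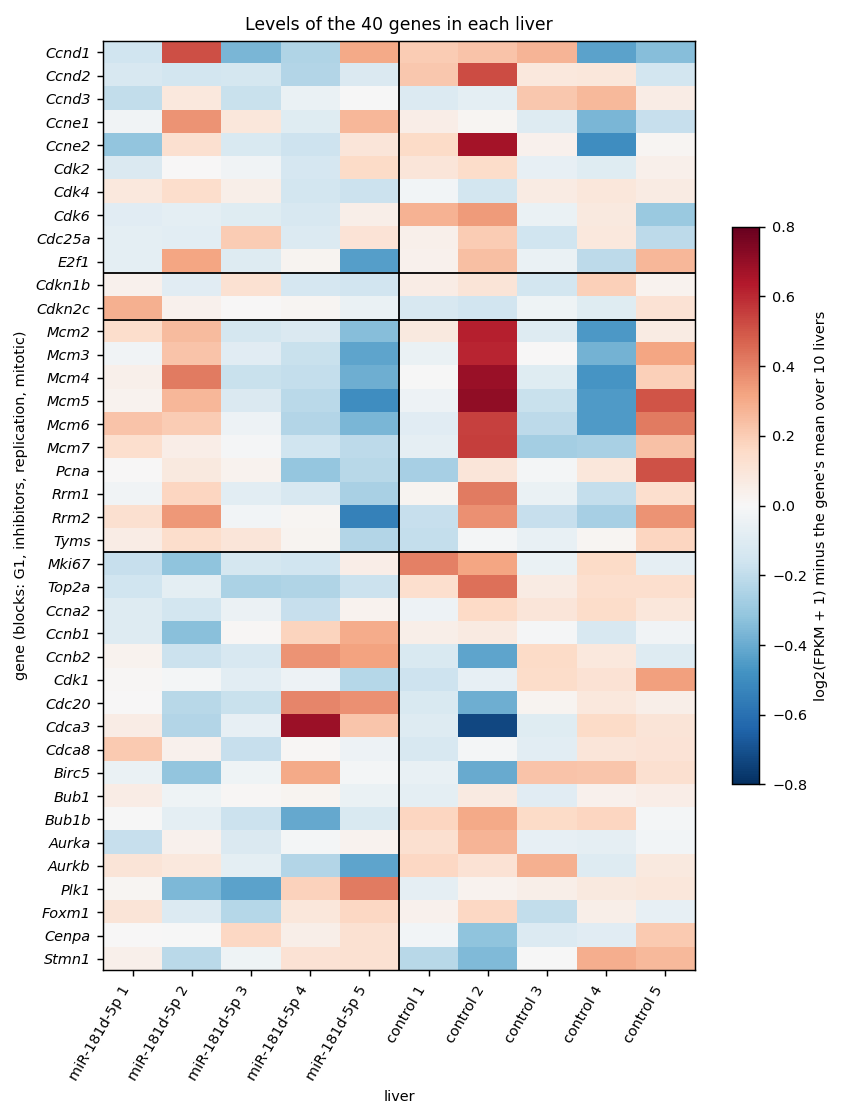
Log2(FPKM + 1) of the 40 genes (rows, in blocks by class) in miR-181d-5p livers 1 to 5 (left) and control livers 1 to 5 (right), each row relative to its mean over the 10 livers. The Mcm rows are all highest in control liver 2, and in that liver Cdca3, Ccnb2 and Cdc20 are at their lowest.

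Across the 40 genes the log2 change was more negative in longer genes, with a Pearson r of -0.49 against log2 length as deposited and -0.25 with the length trend of all genes removed from each liver. Within the 18 mitotic genes r was -0.60 as deposited and -0.41 after removal, and over all genes tested -0.24 and 0.04. It was -0.31 and 0.02 within the 20 G1/S genes. Within the 10 replication genes among them it had the other sign, at 0.35 and 0.6. These are correlations across genes of the same 10 livers, and genes are not independent replicates. With the trend removed the G1/S median was -0.07 and the mitotic median -0.06, closer to each other than as deposited. The same 5 genes had an unadjusted p under 0.05 in that fit. What part length has in the differences between the vectors was not tested beyond this.

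**Figure D5:**
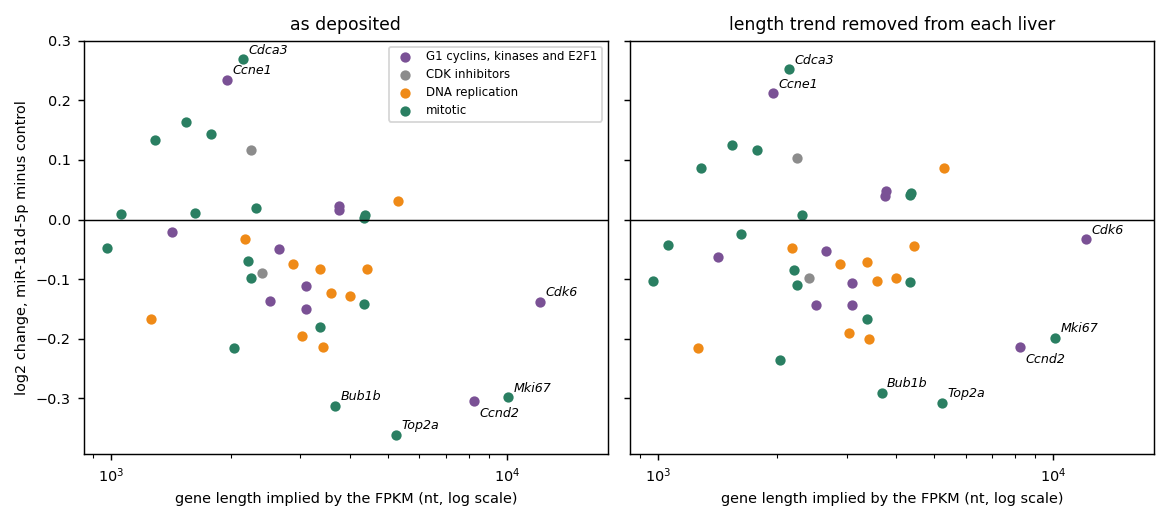
Log2 change (y axis, miR-181d-5p minus control livers) of the 40 genes against the gene length implied by the FPKM values (x axis, bases, log scale), as deposited and with a length trend removed from each liver. Mki67 and Ccnd2 lay at -0.20 and -0.21 after removal, while Top2a (-0.31) and Bub1b (-0.29) were lowest.

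The G1/S and mitotic classes were also set against each other within each liver. The mean of the mitotic genes minus that of the G1/S genes, on the log2 scale and relative to the control mean, was 0.03, -0.29, -0.03, 0.22 and 0.24 in miR-181d-5p livers 1 to 5, against 0.01, -0.36, 0.09, 0.29 and -0.02 in control livers 1 to 5. Both groups span nearly the same range, with liver 2 lowest in each. The pooled SD within groups of the livers' class medians was 0.18 for G1/S and 0.07 for mitotic genes. Genes that move in opposite directions cancel in such a median. Gene by gene, the median SD was 0.178 for G1/S and 0.149 for mitotic genes in miR-181d-5p livers. In control livers it was 0.269 and 0.148.

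Other genes of the same pathways had small differences too. Of 35 tested replication genes outside the 40, 0 were lower and 2 were higher at an unadjusted limma p under 0.05, with a median log2 change of -0.03 and 0 past the adjusted threshold. These were Mcm10, which loads the replication polymerase, at 10.4 ± 0.945 FPKM in miR-181d-5p livers and 8.68 ± 1.57 FPKM in control livers, and Gins3, a subunit of the active helicase, at 0.968 ± 0.0317 against 0.758 ± 0.150 FPKM. Gins3 alone of the 35 had groups that did not overlap, with miR-181d-5p livers higher. Dnmt1, the maintenance DNA methyltransferase, had the next smallest p, at 5.13 ± 0.509 FPKM in miR-181d-5p livers and 6.01 ± 1.27 FPKM in control livers.

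Of 51 tested mitotic genes outside the 40, 5 were lower and 1 higher at an unadjusted p under 0.05 (11.8%), with a median of -0.06. Groups did not overlap for 2 of them, Ndc80 and Ncapd2, both lower. Over all genes tested, groups were separated for 1.45% with miR-181d-5p lower and for 1.02% with it higher. Ndc80, which ties microtubules to kinetochores, averaged 1.04 ± 0.109 FPKM in miR-181d-5p livers and 1.33 ± 0.0832 FPKM in control livers. Ncapd2, a condensin subunit, averaged 2.08 ± 0.125 against 2.56 ± 0.314 FPKM, and Incenp 3.02 ± 0.271 against 3.66 ± 0.387 FPKM. Their limma adjusted p were 0.254, 0.269 and 0.288. The single higher gene was Pttg1 (securin), named after its value was seen, at 7.45 ± 0.632 FPKM in miR-181d-5p livers and 6.21 ± 1.02 FPKM in control livers.

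Among 28 tested inhibitors, pocket proteins and E2F partners, 1 was lower and 2 were higher at an unadjusted p under 0.05, with a median of -0.01. Cdkn1a (p21), the inhibitor that p53 induces, had 34.6, 25.5, 32.1, 30.6 and 30.9 FPKM in miR-181d-5p livers, against 39.1, 37.3, 38.3, 45.5 and 41.4 FPKM in control livers. The groups did not overlap, and the log2 change was -0.38 (SE 0.08) with a limma adjusted p of 0.221. Cdkn1c (p57) averaged 4.49 ± 0.633 FPKM in miR-181d-5p livers and 3.42 ± 1.01 FPKM in control livers, and Cdkn2a, which encodes p16 and p19Arf, 0.724 ± 0.396 against 0.331 ± 0.146 FPKM, with limma adjusted p of 0.312 and 0.317. The named inhibitors thus had differences of both signs, none past the adjusted threshold.

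Markers of cells that can cycle in an injured liver were also compared, and 0 markers of any list passed the adjusted threshold. Over all genes tested, 9.63% were lower and 5.04% higher in miR-181d-5p livers at an unadjusted limma p under 0.05. The 12 stellate cell and fibroblast markers were led by Dcn and Col3a1, which averaged 226 and 113 FPKM over all livers. The 12 summed to 380 to 530.2 FPKM in miR-181d-5p livers and 539.9 to 729 FPKM in control livers, without overlap. Dcn and Col3a1 make up much of that sum. Only 1 of the 12 had groups that did not overlap by itself, with miR-181d-5p lower, against 1.45% of all genes tested. Of the 12, 11 were lower, 9 of them at an unadjusted limma p under 0.05. The cholangiocyte markers, led by Spp1 and Epcam, summed to 119 to 385 FPKM in miR-181d-5p livers and 282 to 529 FPKM in control livers, with 8 of 8 tested genes lower, 6 of them at an unadjusted p under 0.05. That sum rests mainly on Spp1, which averaged 267 FPKM over all livers, against 10.2 FPKM for Epcam. Macrophage and monocyte markers, led by Lyz2 and Cd5l, summed to 1622 to 2856 FPKM in miR-181d-5p livers and 2245 to 3150.2 FPKM in control livers, with 12 of 15 lower and 3 higher, and at an unadjusted p under 0.05 there were 3 lower and 1 higher. The lymphocyte markers summed to 19.5 to 28.7 FPKM in miR-181d-5p livers and 18.5 to 38.8 FPKM in control livers, with 8 of 10 tested genes lower, 2 of them at an unadjusted p under 0.05.

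Endothelial markers summed to 125 to 134 FPKM in miR-181d-5p livers and 128 to 144 FPKM in control livers, with 8 of 10 lower, 3 of them at an unadjusted p under 0.05. Neutrophil markers summed to 52.6 to 83.5 against 49.6 to 117 FPKM, and erythroid markers, which include genes of dividing precursors, to 182 to 772 against 177 to 1179 FPKM, both with 0 genes at an unadjusted limma p under 0.05. Of the hepatocyte markers 1 of 12 was higher at that level, and no marker of any list was at 0 in all livers. What part these cell types have in the differences of Top2a, Bub1b, Mki67, Ccna2 and Ccnd2 was not tested.

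Reads of some genes may be shared with others, since the sources used here do not say whether reads were counted by strand. A gene on the opposite strand overlaps Ccnd1, Ccnd2, Ccnd3, Ccne2, Cdk2, Cdk4, Cdk6, Mcm7, Mki67, Top2a, Ccna2, Cdc20, Cdca8 and Plk1 in the annotation. On the same strand, the annotation places Tex52 and Gm44596 over Foxm1 and Gm45399 over Rrm1. It also places small RNA genes there: Gm23451 over Top2a, Mir25, Mir93 and Mir106b over Mcm7, Mir7089 over Cdc25a and Gm23634 over Stmn1. Ccnd3, Pcna, Tyms, Ccnb1, Ccnb2 and Stmn1 have annotated pseudogenes or related copies. Values of these genes are uncertain to that extent.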

How the data were processed

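Total RNA of 10 mouse livers was extracted with the mirVana kit and made into TruSeq Stranded mRNA libraries, per the labels' protocols. The authors deposited 1 table of FPKM with 17274 genes; its formula and strand setting are not given in the sources used here. The submitters' processing notes name HISAT2 2.2.1 and HTSeq 0.13.5 among the tools, and the mm10 build. FPKM values were whole reads (within 0.02 of a read) for 17274 of 17274 genes, or 100.0%, the 57 genes at 0 in all livers included, which gave gene lengths and library totals of 18985912 to 20657019 reads. Of 14278 genes with reads in every liver, 99.96% had an implied length that was itself whole within 0.02.

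Log2(FPKM + 1) was fitted by limma (version 3.58.1, R 4.3.3; lmFit, eBayes with trend) for the 12053 genes that average 0.5 FPKM or more. Group was the sole term, p-values are two-sided and Benjamini-Hochberg adjusted over all these genes, and 0.05 was the threshold. A log2 change on this scale understates that of low genes. Single genes also had a two-sided exact permutation test over all labellings. The members, lists and rules were chosen with earlier results of these data known.

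Values in every liver were given for Mki67, Top2a, Ccnd1, both CDK inhibitors and the 3 members with the smallest limma p per class, and for others where the text says so. Other lists show their 3 smallest p, and marker lists their 2 highest genes. A total of 20 alternatives covered pseudocount, filter, scaling, weights, voom, the replicate block and each liver left out. Removal of a gene length trend (lowess, span 0.3) and of control livers 1 and 2 together were chosen after seeing the data. Without control livers 1 and 2, control liver 5 stays in the fit with its slope of -0.10 on gene length. Chi-square per degree of freedom between livers of a group was at least 9.5, so no pair agreed within counting noise. The labels give no batch. Promoters and the microRNA came from RefSeq (GRCm38.p6), and 3′ UTRs and gene positions from GENCODE vM21 (mm10). The rest was done in Python 3.11.15.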

Additional observations from a re-analysis of the deposited data

Results flagged for a closer look

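In 4 of 80 groups of 5 livers (40 genes in each vector group) the highest or lowest liver stood apart, with its gap to the next liver beyond Dixon's critical share of the group's range; chance flags about 1 in 20 groups, which is 4 of 80. Top2a was at 6.06 FPKM in control liver 2, above 4.44 to 4.72 FPKM in the other control livers. Ccnd2 was at 2.44 FPKM in miR-181d-5p liver 4, below 2.67 to 2.74 FPKM in the others of that group. Cdk6 was at 3.23 FPKM in miR-181d-5p liver 5, above 2.75 to 2.88 FPKM in the others. Cdkn2c was at 9.82 FPKM in miR-181d-5p liver 1, above 7.55 to 8.10 FPKM in the others.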

How the results depend on the processing

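Under all 20 alternatives 0 of the 40 genes passed an adjusted p of 0.05, and 5 to 7 had an unadjusted p under 0.05. Top2a and Bub1b had one under all 20, Ccnd2 and Mki67 under 19 (not without control livers 1 and 2) and Ccna2 under 13. Over all genes, limma called 1 with the replicate block (Ccn2), 7 without control livers 1 and 2 (Ifi27l2a, Inhbb, Jdp2, Mt1, Mt2, Slc35d1 and Srgn), and 0 to 3 when 1 liver was left out. With the replicate block 6 of the 40 had an unadjusted p under 0.05. Livers of the same number correlated at -0.28 to 0.01 and 0 of 5 correlated best with its own number. The levels thus show no shared effect of the number, which cannot exclude a pairing in the design. Ccnd1 changed sign under a common sum (-0.005) and quantile scaling (-0.012), and ran from -0.10 to 0.12 when 1 liver was left out. The mitotic median was 0.001 under quantile scaling, 0.01 without miR-181d-5p liver 2 and 0.01 without miR-181d-5p liver 3; without control liver 2 the G1/S median was -0.01. Genes at an unadjusted p under 0.05 were 607 higher and 1161 lower in the reported fit, 347 and 1266 under a common sum, and 997 and 942 under quantile scaling. The filter at 1 FPKM leaves out Bub1. The 40 genes held as few as 52 reads in a liver; how depth limits the calls was not tested.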
